A study of Homo sapiens with 9 samples.

Results

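The genes described here encode the enzymes of glycolysis and gluconeogenesis and a set of genes of the response to low oxygen, 35 in all out of 28395 in each deposited file. They were chosen by name: 22 belong to glycolysis, lactate formation or gluconeogenesis, and 13 are regulators or known targets of the hypoxia-inducible factors. The cells were Caco-2, a human colon carcinoma line of wild-type genotype that forms an enterocyte-like layer when differentiated. They had spent 24 h in medium with 10 µM carmine, in medium with 20 µM carminic acid, or in regular medium as the control, with 3 libraries of total RNA per group named A, B and C. All groups were grown in the same serum-containing medium, and the labels name no lowered oxygen. Carminic acid is a red anthraquinone glycoside from cochineal insects, and carmine is the pigment in which it is complexed with aluminium. The doses of the colorants differ, so their values are set side by side and not compared with each other, and both comparisons share the same 3 control libraries. Nothing in the labels says that the libraries of a group come from separate cultures. The p-values therefore cover only the spread among these 3 libraries, which may be technical.

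Glycolysis breaks glucose down to pyruvate in the cytosol: hexokinase traps glucose as glucose 6-phosphate, phosphofructokinase commits it to the pathway, aldolase splits the sugar, and the steps after GAPDH yield ATP. Lactate dehydrogenase converts pyruvate to lactate and restores NAD+. Gluconeogenesis runs the path backwards and bypasses the irreversible steps with PEP carboxykinase, fructose 1,6-bisphosphatase and glucose 6-phosphatase, enzymes that liver, kidney and small intestine share. The alpha subunits of the hypoxia-inducible factors (HIF) are hydroxylated by oxygen-dependent EGLN enzymes and then degraded. When oxygen is low the subunits persist, pair with ARNT and switch on genes for glucose uptake, glycolysis, pH control, vessel growth and mitochondrial turnover. Most control of the alpha subunits acts on the protein, which RNA counts do not measure.

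HIF binds DNA at a short core, searched here as ACGTG on both strands; its reverse complement is CACGT, and CACGTG holds both with an overlap. RefSeq promoter windows held 300 bases, 250 before and 50 after an annotated start (GRCh38.p14, the build named hg38 in the submitters' processing notes). They were matched to 31 of the 35 genes by NCBI Gene ID, and PCK1, VEGFA, BNIP3L and NDRG1 had no window. The core was found in 22 of 54 windows of these genes, 40.74%, and in 21.41% of all 35116 windows in the table. By gene, 18 of 31 held it in at least 1 window, against 24.87% of 27305 genes. The share by gene also depends on the number of windows per gene. The members had 54 windows for 31 genes, and all genes had 35116 windows for 27305. A match is a description of the letters and not a bound site. Stretches before the start of 6 members are shown. These members were taken from known HIF targets that held the core and whose values are given in what follows. That all 6 hold it follows from this choice. In the stretches, capitals mark ACGTG or its reverse complement, and each stretch is written 5′ to 3′ on the gene's own strand. They lie at chr9:35673885-35673927 (plus strand, CA9), chr10:131982028-131982082 (minus strand, BNIP3), chr11:18394465-18394519 (plus, LDHA), chrX:78104040-78104094 (plus, PGK1), chr10:73096923-73096977 (minus, P4HA1) and chr12:6914437-6914491 (plus, ENO2). The match around which each stretch was drawn starts 18 bases before the annotated start in CA9, 134 in BNIP3, 73 in LDHA, 183 in PGK1, 86 in P4HA1 and 118 in ENO2.
CA9: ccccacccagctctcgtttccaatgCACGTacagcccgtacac
BNIP3: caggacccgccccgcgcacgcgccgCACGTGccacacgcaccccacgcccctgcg
LDHA: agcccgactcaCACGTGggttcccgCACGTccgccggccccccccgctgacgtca
PGK1: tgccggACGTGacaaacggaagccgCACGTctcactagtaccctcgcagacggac
P4HA1: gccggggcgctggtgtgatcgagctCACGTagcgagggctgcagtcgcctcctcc
ENO2: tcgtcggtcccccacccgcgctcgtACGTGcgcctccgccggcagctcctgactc
The other members that held the core in at least 1 window were HK2, GPI, PFKM, PFKP, ALDOA, ALDOC, TPI1, GAPDH, PKLR, G6PC1, PDK1 and ANKRD37. Members with a window but without these letters in it were HK1, PFKL, PGAM1, ENO1, PKM, LDHB, PCK2, FBP1, HIF1A, EPAS1, EGLN3, SLC2A1 and ADM. The stretches of LDHA and PGK1 hold the core at more than 1 place, and those of BNIP3 and LDHA hold the palindrome.

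Total counts lay between 54871018 and 57581301 per library. Levels are CPM, counts scaled to library size with TMM factors, and levels of different genes are compared only per kilobase of exon (RPKM). Of 16017 genes with enough counts for testing, 34 were members; PKLR, the liver and red cell pyruvate kinase, had 21 counts in all 9 libraries together and was not tested. Of 9 enterocyte-type marker genes, 8 were tested and KRT20 had 0 counts in every library; the summed level of the list was 4582 to 4729 CPM with carmine, 4714 to 4961 with carminic acid and 4586 to 4713 in control. Markers of other cell types were mixed: COL1A2 and DCN of stroma and PTPRC of immune cells had means of at most 0.0158 CPM and KDR of endothelium was at 0 throughout, while COL3A1 averaged 4.04, PDGFRB 5.69 and CD14 6.68 CPM and PECAM1 lay between 9.77 and 12.5 CPM. The summed stromal list, nearly all of it COL1A1 (mean 116.9 CPM), was 102.6 to 128.2 CPM with carmine, 109.9 to 142.7 with carminic acid and 115.1 to 154.3 in control. The summed immune list, nearly all of it the lysosomal gene CD68 (mean 336.6 CPM), was 335 to 350.8 CPM with carmine, 327 to 396.1 for carminic acid and 306 to 341.7 in control. The endothelial list summed to 10.84 to 13.57 CPM with carmine, 11.4 to 13.69 for carminic acid and 11.31 to 12.12 in control. Mitochondrially encoded transcripts took 1.19% ± 0.184 of counts with carmine, 1.60% ± 0.433 with carminic acid and 2.30% ± 0.308 in control (SD, n = 3 each). Carmine library C stood apart from the other libraries in several of the measures below, so a carmine value that moves by over 1.5 times without it is also given without it. Log2 fold changes over 15453 genes with known length and GC content had a Spearman correlation of 0.143 with GC content and -0.255 with length for carmine, and of 0.481 and -0.106 for carminic acid; members had a median GC content of 54.1% and length of 3094 bases, against 49.9% and 3192 bases for all tested genes.

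The later steps of glycolysis were among the abundant transcripts of these cells. GAPDH had the highest level per length of the 35 genes, at 3138 ± 376 RPKM with carmine, 3190 ± 181 with carminic acid and 2914 ± 188 in control (SD, n = 3 each). LDHA, ENO1 and TPI1 followed with control levels of 1160 ± 54.6, 1107 ± 34.04 and 1021 ± 37.7 RPKM, and the spread of LDHA overlapped that of ENO1. The hypoxia-linked stress gene NDRG1 and aldolase ALDOA came next at 731 ± 21.3 and 724 ± 41.5 RPKM in control, levels that did not differ beyond their spread. LDHB at 549 ± 12.3 and PKM at 539 ± 14.8 RPKM were also alike within their spread. The middle of the order ran from PGK1 (386.5 ± 7.05 RPKM), SLC2A1 (318 ± 10.6) and PGAM1 (199.5 ± 5.69) through P4HA1, GPI, BNIP3, ALDOC, PFKL, PDK1, BNIP3L, PFKP, VEGFA, ENO2, HK2, FBP1, PFKM and PCK2 (31.5 ± 0.632) in control. The ranges of ALDOC, PFKL, PDK1 and BNIP3L overlapped one another. ADM, HIF1A, CA9 and EPAS1 lay between 13.8 ± 0.429 and 18.3 ± 1.15 RPKM. The lowest tested members were G6PC1, HK1, ANKRD37, EGLN3 and PCK1, from 2.07 ± 0.202 to 4.13 ± 0.0869 RPKM in control. PKLR was listed at 2 to 4 counts per library with carmine, 1 to 2 with carminic acid and 2 to 3 in control.

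**Figure D1:**
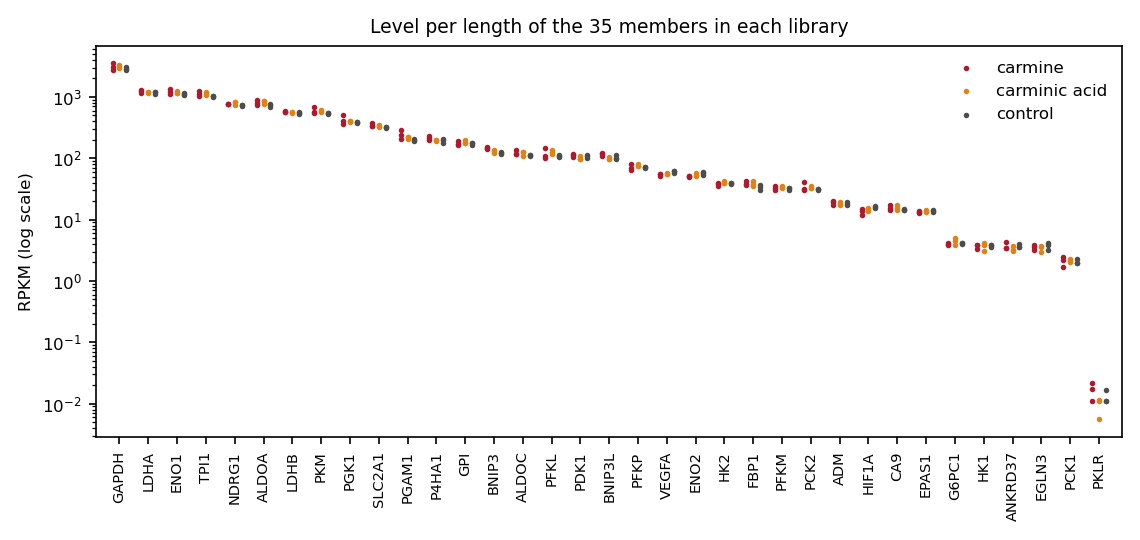
Level of each of the 35 genes in RPKM (log scale) in each library, ordered by control level, with carmine, carminic acid and control as coloured points side by side. The points of a gene lie close together, while the genes span from PKLR, below 0.05 RPKM in every library, to GAPDH, the highest in every library.

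Isoenzymes of one step were unevenly represented. PKM supplied nearly all pyruvate kinase RNA, since PKLR held 0.00285% ± 0.001075 of the summed RPKM of the pair with carmine, 0.00161% ± 0.000606 with carminic acid and 0.00242% ± 0.000621 in control (SD, n = 3 each). ENO1 held 95.8% ± 0.362 of the summed enolase RPKM with carmine, 95.4% ± 0.0694 with carminic acid and 94.9% ± 0.149 in control. The ENO1 share was higher in every carmine and every carminic acid library than in any control library, an observation chosen after its values were seen. HK2, the inducible hexokinase, held 34.15% ± 2.49 of summed hexokinase RPKM with carmine, 34.7% ± 0.722 with carminic acid and 35.6% ± 0.8485 in control; HK1 held 3.46% ± 0.1497 in control, and most of the rest was HKDC1, a hexokinase-like gene outside the list and named after its values were seen. Liver-type PFKL made up 52.9% ± 2.56 of phosphofructokinase RPKM with carmine, 53.3% ± 1.02 with carminic acid and 51.7% ± 1.03 in control, ahead of platelet-type PFKP and muscle-type PFKM. LDHA held 68.2% ± 1.20 of lactate dehydrogenase RPKM with carmine, 67.9% ± 0.4595 under carminic acid and 67.9% ± 0.589 in control. The LDHA shares differed by less than their spread. The mitochondrial PEP carboxykinase PCK2 far outweighed the cytosolic PCK1, with 94.2% ± 1.19 of the pair with carmine, 93.96% ± 0.118 with carminic acid and 93.8% ± 0.516 in control.

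For carmine, the question was whether the pathway's transcripts differed after 24 h with the aluminium complex. No member passed an adjusted p of 0.05 in edgeR's quasi-likelihood test with Benjamini-Hochberg adjustment over all genes, and neither did any other gene (0.00% of 16017). The differences that stood farthest from the library spread were a higher level of the mitophagy receptor gene BNIP3 and of the glycolytic mutase PGAM1, and lower levels of HIF1A, VEGFA and the enolase ENO2. Of 34 tested members 25 had a positive log2 fold change, with a median of 0.08, whereas 51.67% of all genes were positive with a median of 0.0066. The 21 tested glycolysis and gluconeogenesis genes were positive in 16 (median 0.09) and the 13 hypoxia genes in 9 (median 0.05). Without carmine library C the medians were 0.019 and 0.0382. PFKL, PFKM, GPI, PGK1, PCK2 and ANKRD37 were then negative instead of positive, and HK1 was positive instead of negative. In bulk RNA, fewer cells of a type and less RNA per cell cannot be told apart.

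An unadjusted p under 0.05 was found for 4 members that were higher with carmine (PGAM1, FBP1, BNIP3 and BNIP3L), where 5.38% of all tested genes met it, and for 3 that were lower (ENO2, HIF1A and VEGFA), where 5.61% did. The 3 carmine libraries all lay above the 3 control libraries for 7 members (ALDOC, PGAM1, LDHB, FBP1, SLC2A1, BNIP3 and NDRG1), a pattern that 7.32% of all genes had. They all lay below for 3 members (ENO2, HIF1A and VEGFA), against 7.67% of all genes. Counts were also fitted with the per-library trends of counts on transcript length and GC content removed. For carmine, 58.85% of all genes were then positive, with a median log2 fold change of 0.0336. In that fit 445 of 15453 genes passed the adjusted threshold, 317 of them higher, and 4 members were among them: PGAM1 (0.28; edgeR adjusted p = 0.04485), HIF1A (-0.22; 0.0338), BNIP3 (0.29; 0.0128) and BNIP3L (0.19; 0.0489). DESeq2 called 81 genes for carmine, and BNIP3 was the only member among them (adjusted p = 0.0320). Limma-voom with quality weights called 43 genes and no member. The cause of the differences between these fits was not tested.

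For carminic acid, the dye without aluminium, no member and no other gene passed the adjusted threshold either (0.00% of 16017). Glycolysis and gluconeogenesis genes had small positive differences in 19 of 21 (median 0.10), and hypoxia genes were divided, with 5 of 13 positive (median -0.01). Together 24 of 34 members were positive with a median of 0.08, whereas 48.11% of all genes were positive with a median of -0.0078. With the length and GC trends removed, 7 of 13 hypoxia genes were positive and their median was 0.04, on the other side of 0, while 58.73% of all genes were positive with a median of 0.02.

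An unadjusted p under 0.05 was found for 2 members that were higher with carminic acid (ALDOA and FBP1), where 2.52% of all genes met it, and for 0 that were lower, where 3.91% did. The carminic acid libraries all lay above the control libraries for 9 members (PFKL, PFKM, PFKP, ALDOA, TPI1, ENO1, PKM, PCK2 and SLC2A1), against 12% of all genes. They all lay below for VEGFA alone among the members, against 8.82% of all genes. All 3 phosphofructokinase genes were among the 9. The smallest adjusted p of a member for carminic acid was 0.717 in the main edgeR fit and 0.4156 in edgeR with the trends removed. In this comparison 0 members were called in any alternative fit. DESeq2 called 6 genes and limma-voom 34.

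**Figure D2:**
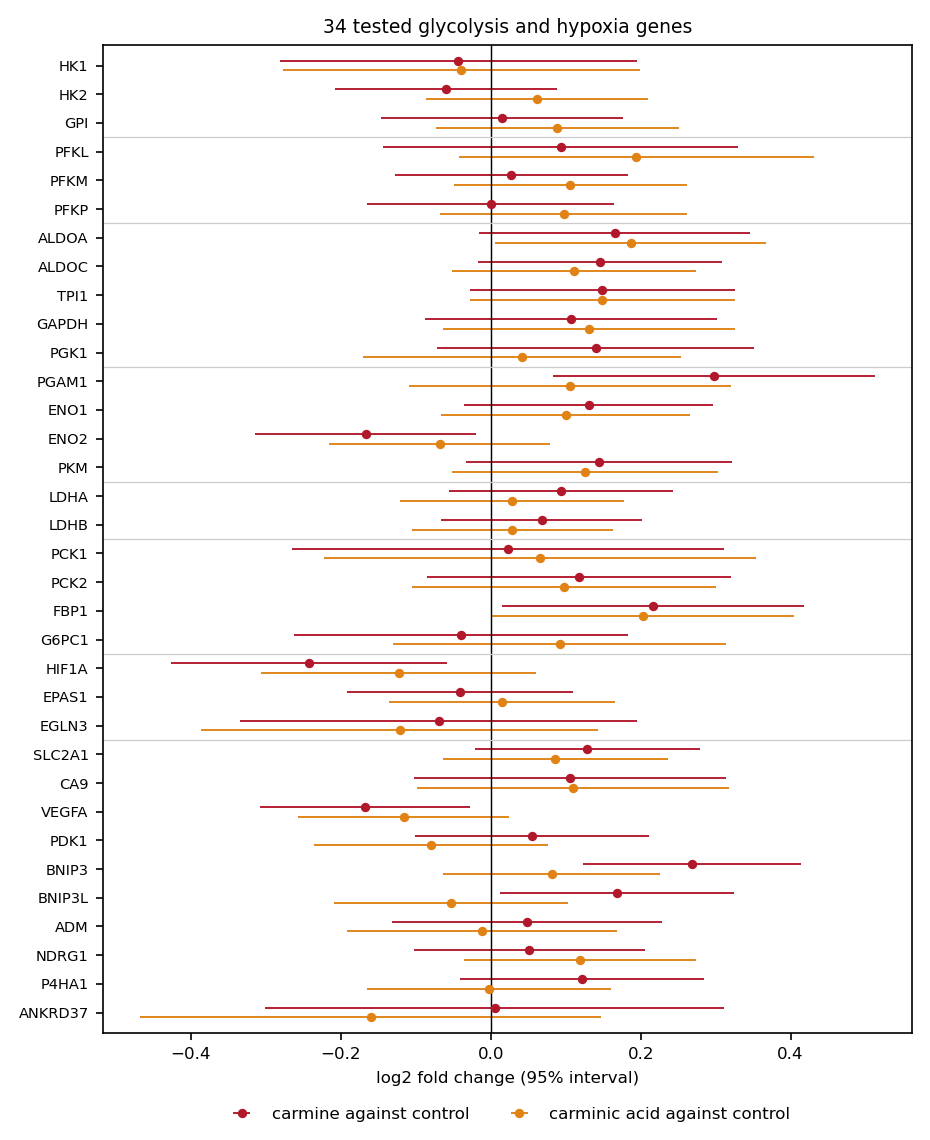
Log2 fold change and 95% interval from edgeR for the 34 tested genes, carmine against control and carminic acid against control, with grey lines between functional groups. Intervals that leave out 0 belong to PGAM1, ENO2, FBP1, HIF1A, VEGFA, BNIP3 and BNIP3L for carmine and to ALDOA and FBP1 for carminic acid, and none of these passed after adjustment.

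Entry into glycolysis showed small differences. HK2 stood at 225, 221 and 203 CPM with carmine, 231, 249 and 226 CPM with carminic acid and 229, 217 and 231 CPM in control (libraries A, B and C here and in all such lists). Paired values given from here on without a unit are log2 fold changes, for carmine against control and then for carminic acid against control. The 3 groups overlapped, with log2 fold changes of -0.06 for carmine (95% interval -0.21 to 0.09) and 0.06 for carminic acid (-0.09 to 0.21). HK1, the housekeeping hexokinase, had log2 fold changes of -0.04 and -0.04 for the same comparisons, and GPI, which turns glucose 6-phosphate into fructose 6-phosphate, had 0.015 and 0.09. The phosphofructokinase genes PFKL, PFKM and PFKP had log2 fold changes of 0.09, 0.03 and -0.0002 for carmine and 0.19, 0.11 and 0.10 for carminic acid. PFKL was uneven between carmine libraries, at 297, 311 and 421 CPM with carmine against 332, 322.5 and 310.4 CPM in control: library C alone lay above control, and without it the value was -0.08.

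ALDOA, the aldolase that splits fructose 1,6-bisphosphate, stood at 2447, 2592 and 2985 CPM with carmine, 2546, 2795 and 2802 CPM with carminic acid and 2424, 2497 and 2232 CPM in control. The carminic acid libraries were all above control, and of the carmine libraries 1 lay within the control range. Its log2 fold change was 0.17 (SE 0.0845, edgeR adjusted p = 0.4705) for carmine and 0.19 (SE 0.0845, adjusted p = 0.717) for carminic acid, and the carmine value was 0.08 without carmine library C. GAPDH, which couples oxidation of the triose to NADH formation, stood at 6094, 6799 and 7737 CPM with carmine, 6550, 7320 and 7096 CPM with carminic acid and 6040, 6840 and 6271 CPM in control, with log2 fold changes of 0.11 and 0.13. The groups overlapped, carmine library C was the highest of all 9, and without it the carmine value was 0.02. PGK1, the first ATP-forming enzyme of the path, stood at 1768, 1995 and 2479 CPM with carmine, 1872, 1959 and 2000 CPM with carminic acid and 1851, 1897 and 1918 CPM in control. Again carmine library C was far above the rest, and the carmine value of 0.14 became -0.0006 without it. ALDOC, a further aldolase, and TPI1, which interconverts the trioses, had log2 fold changes of 0.15 and 0.15 for carmine and 0.11 and 0.15 for carminic acid. Without carmine library C the carmine values were 0.08 for ALDOC and 0.06 for TPI1. ALDOA, GAPDH, TPI1, PGK1, PGAM1, ENO1 and LDHA have processed pseudogenes or near-identical copies, and the counting of reads that match several places is not given in the sources used here. Their levels are uncertain to that extent.

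PGAM1 (Gene ID 5223; chr10:97426191-97433444 in hg38), which moves the phosphate of 3-phosphoglycerate, had the largest positive value of the 34 members for carmine. It stood at 378, 432 and 535.5 CPM with carmine, 371, 405 and 402 CPM with carminic acid and 354, 366.5 and 375 CPM in control. All carmine libraries exceeded all control libraries, by little in A and by most in C, and the carminic acid libraries overlapped the control range. The log2 fold change was 0.30 for carmine (SE 0.1005, edgeR adjusted p = 0.383) and 0.11 for carminic acid (95% interval -0.11 to 0.32). Without carmine library C the carmine value was 0.16, and without carmine library A it was 0.41. The enolases, which form phosphoenolpyruvate, had values of opposite sign: ENO1 had 0.13 for carmine (0.07 without carmine library C) and 0.10 for carminic acid, while ENO2, the neuronal isoform, had -0.17 and -0.07. ENO2 stood at 124, 122 and 123 CPM with carmine, 126, 138 and 130.1 CPM with carminic acid and 129.9, 146 and 138 CPM in control. The carmine libraries were close together and all below control (edgeR adjusted p = 0.425), whereas carminic acid libraries overlapped it. The difference between ENO1 and ENO2 was not tested.

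PKM, the pyruvate kinase of most tissues, stood at 1705, 1834 and 2135 CPM with carmine, 1798, 1961 and 1841 CPM with carminic acid and 1717, 1755 and 1661 CPM in control. The carminic acid libraries lay above control (0.13), and carmine library A lay within the control range (0.14; 0.05 without carmine library C). LDHA, the lactate-forming isoform and a classical HIF target, stood at 3241, 3581 and 3432 CPM with carmine, 3235, 3299 and 3266 CPM with carminic acid and 3031, 3310 and 3268 CPM in control. These ranges overlapped, with 0.09 for carmine (95% interval -0.06 to 0.24) and 0.03 for carminic acid (-0.12 to 0.18). LDHB, which favours lactate oxidation, averaged 913 ± 12.35 CPM with carmine, 889 ± 22.3 with carminic acid and 871 ± 19.4 in control (SD, n = 3 each).

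Gluconeogenic genes were expressed at low to moderate levels. FBP1, fructose 1,6-bisphosphatase, was the only member with an unadjusted p under 0.05 in both comparisons. It stood at 62.4, 61.1 and 72.3 CPM with carmine, 59.1, 64.03 and 70.9 CPM with carminic acid and 60.5, 57.04 and 51.0 CPM in control. Carmine libraries were all above control, though library B by less than 1 CPM, and 1 carminic acid library lay inside the control range. The log2 fold change was 0.22 for carmine (SE 0.0942, edgeR adjusted p = 0.438) and 0.20 for carminic acid (SE 0.0942, adjusted p = 0.717). Control library C was the lowest of the 9, and without it the values were 0.15 and 0.14; without carmine library C the carmine value was 0.14, and without carminic acid library C the carminic acid value was 0.13. PCK1 stood at 7.23, 10.8 and 9.402 CPM with carmine, 8.99, 9.77 and 9.48 CPM with carminic acid and 8.385, 9.998 and 8.603 CPM in control. Its groups overlapped, and the intervals of -0.27 to 0.31 for carmine and -0.22 to 0.35 for carminic acid are among the widest here. PCK2 had log2 fold changes of 0.12 and 0.10, the carmine value being -0.02 without carmine library C, and G6PC1, the glucose 6-phosphatase catalytic subunit, had -0.04 and 0.09.

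**Figure D3:**
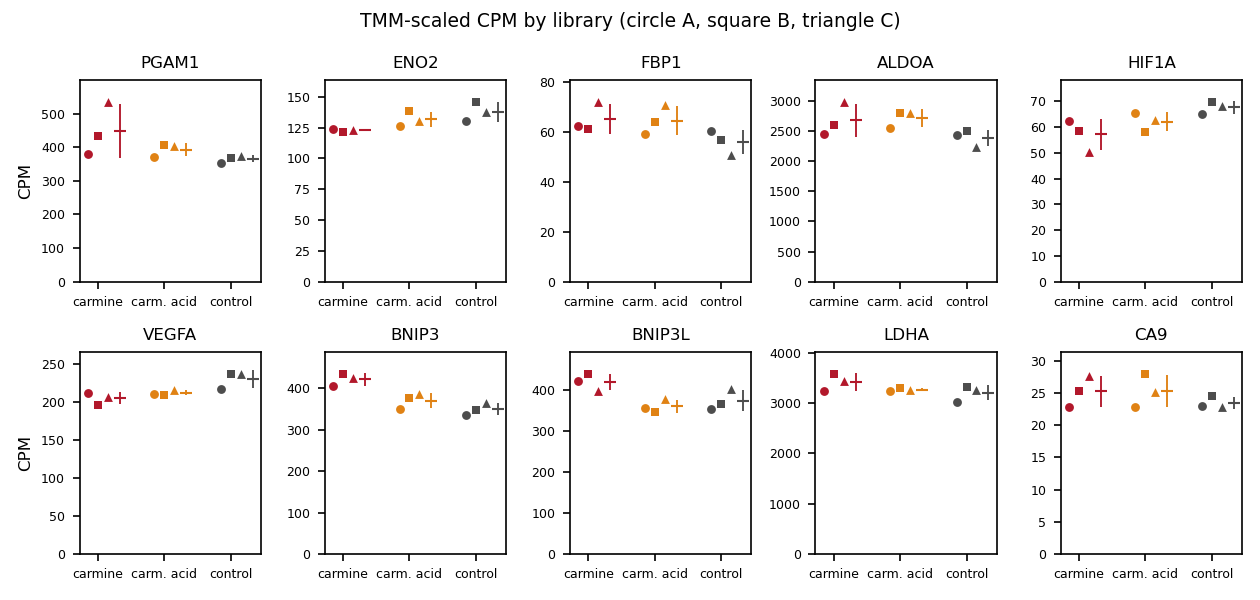
TMM-scaled CPM by library for 10 genes with carmine, carminic acid (carm. acid) and control from left to right; circles, squares and triangles are libraries A, B and C, and the bar beside them is the mean ± SD of the 3 libraries. BNIP3 lies above control in all carmine libraries, ENO2, HIF1A and VEGFA lie below it, and PGAM1 and ALDOA are highest in carmine library C.

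Among the regulators, HIF1A (Gene ID 3091; chr14:61695513-61748258), the main oxygen-regulated alpha subunit, had the most negative value of the 34 members for carmine. It stood at 62.5, 58.5 and 50.55 CPM with carmine, 65.4, 58.1 and 62.95 CPM with carminic acid and 65.02, 69.9 and 68.1 CPM in control. All carmine libraries lay below all control libraries, with library C lowest, and 1 carminic acid library lay within the control range. The log2 fold change was -0.24 for carmine (SE 0.0861, edgeR adjusted p = 0.384; -0.16 without carmine library C) and -0.12 for carminic acid (95% interval -0.31 to 0.06; 0.04 with the trends removed). HIF1A has an overlapping antisense gene, and the strand setting of the counting is not given in the sources used here. Whether the counting kept reads of the pair apart is therefore not known. EPAS1, which encodes HIF-2 alpha, the form linked to intestinal iron uptake, stood at 71.6, 69.7 and 65.96 CPM with carmine, 68.5, 72.6 and 74.4 CPM with carminic acid and 70.4, 69.3 and 73.55 CPM in control. The 3 groups overlapped, with log2 fold changes of -0.04 and 0.015. EGLN3, a prolyl hydroxylase that is itself induced by HIF, had -0.07 for carmine and -0.12 for carminic acid, with intervals that included 0.

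Of the 10 HIF target genes, 9 had positive log2 fold changes for carmine and 4 for carminic acid, against 8 and 6 with the length and GC trends removed. Over all genes, 51.67% were positive for carmine and 48.11% for carminic acid, against 58.85% and 58.73% with the trends removed. VEGFA was the negative one for carmine. BNIP3 (Gene ID 664; chr10:131967684-131981923), which marks mitochondria for removal, had the smallest p of all members, at 406, 435 and 424.5 CPM with carmine, 349.6, 376 and 386 CPM with carminic acid and 337, 349 and 365 CPM in control. The lowest carmine library lay above the highest control library, and the carminic acid libraries overlapped control. Means were 422 ± 15.03 CPM with carmine, 370.5 ± 18.7 with carminic acid and 350.2 ± 13.97 in control (SD, n = 3 each), with log2 fold changes of 0.27 for carmine (SE 0.0678, edgeR adjusted p = 0.2996) and 0.08 for carminic acid (95% interval -0.06 to 0.23). Leaving out any 1 library kept the carmine value between 0.24 and 0.30. The related receptor gene BNIP3L stood at 421, 439 and 398 CPM with carmine, 355, 346 and 378 CPM with carminic acid and 352, 365 and 402 CPM in control. Carmine library C lay within the control range, and the fold changes were 0.17 (SE 0.0729, edgeR adjusted p = 0.438) for carmine and -0.05 for carminic acid, the second being 0.09 with the trends removed. Beside these 2 mitophagy genes, the mitochondrial share of counts was lower with carmine than in control without overlap, and its part in the result was not tested.

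VEGFA (Gene ID 7422; chr6:43770211-43786487), the vascular growth factor, had values of the opposite sign and stood at 211, 196 and 207 CPM with carmine, 211, 209 and 216 CPM with carminic acid and 216, 237 and 236 CPM in control. Every carmine and every carminic acid library lay below every control library. The margin was small for carminic acid library C, at 215.9 CPM against 216.3 CPM in control library A. The log2 fold changes were -0.17 (SE 0.0657, edgeR adjusted p = 0.404) and -0.12 (SE 0.0657, adjusted p = 0.717). CA9, a cell-surface carbonic anhydrase that is among the most HIF-dependent genes, stood at 22.8, 25.3 and 27.7 CPM with carmine, 22.9, 28.0 and 25.1 CPM with carminic acid and 23.04, 24.5 and 22.9 CPM in control. Its groups overlapped, with 0.11 and 0.11, and the carmine value was 0.04 without carmine library C. SLC2A1, the basal glucose transporter, stood at 1229, 1227 and 1368 CPM with carmine, 1199, 1280 and 1233 CPM with carminic acid and 1123, 1177 and 1198 CPM in control. Libraries of both colorants lay above control, carminic acid library A by only 1 CPM, with 0.13 for carmine (95% interval -0.02 to 0.28; 0.08 without carmine library C) and 0.09 for carminic acid (-0.06 to 0.24).

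The remaining targets had differences within about 0.2 on the log2 scale. PDK1, which holds pyruvate back from the mitochondrion, had log2 fold changes of 0.055 for carmine and -0.08 for carminic acid. P4HA1, a collagen prolyl hydroxylase subunit, had 0.12 and -0.002, and its carminic acid value was 0.11 with the length and GC trends removed. NDRG1 averaged 2848 ± 17.1 CPM with carmine, 2984 ± 224.5 with carminic acid and 2748 ± 80.2 in control (SD, n = 3 each). The vasodilator peptide gene ADM had 0.05 and -0.01. ANKRD37, a small HIF target at about 4 CPM, had 0.0055 and -0.16, with intervals of -0.30 to 0.31 and -0.47 to 0.15.

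The glycolysis genes as a list differed between libraries of the same group. The median log2 difference of the 21 tested glycolysis and gluconeogenesis genes from the control mean was -0.0028, 0.08 and 0.26 in carmine libraries A, B and C, 0.04, 0.16 and 0.08 in those of carminic acid, and -0.03, 0.03 and -0.001 in control. Carmine library A was thus among the controls, and carmine C was the highest. The members of the list took 2.35% to 2.74% of counts with carmine, 2.46% to 2.61% with carminic acid and 2.33% to 2.48% in control. With the length and GC trends removed the medians were 0.04, 0.12 and 0.13 with carmine, 0.04, 0.10 and 0.11 for carminic acid, and -0.04, 0.01 and 0.04 in control, so that carmine library C no longer stood alone. In that fit the median log2 fold change over all genes was 0.0336 for carmine and 0.0242 for carminic acid. For the hypoxia genes the medians were 0.01, 0.07 and 0.07 with carmine, -0.05, 0.02 and 0.0059 for carminic acid, and -0.07, 0.03 and 0.06 in control, and the groups overlapped. Without carmine library C the carmine median of the glycolysis genes was 0.02 in place of 0.09, and by limma-voom with quality weights it was 0.03. Of members not given above, the carmine values without library C were 0.03 for HK1, -0.01 for HK2, -0.04 for GPI, -0.03 for PFKM, -0.08 for PFKP, 0.0068 for PCK1, -0.004 for EPAS1, -0.13 for EGLN3, 0.10 for PDK1, 0.012 for ADM and -0.11 for ANKRD37. Carmine library C also had the lowest mitochondrial share (0.974%), a Spearman correlation of its deviation with length of -0.38, the most negative of the 9 libraries. Its correlation with GC content was 0.501, where carminic acid library B had 0.561 and control library C -0.505, and the part of these values in the result was not tested.

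**Figure D4:**
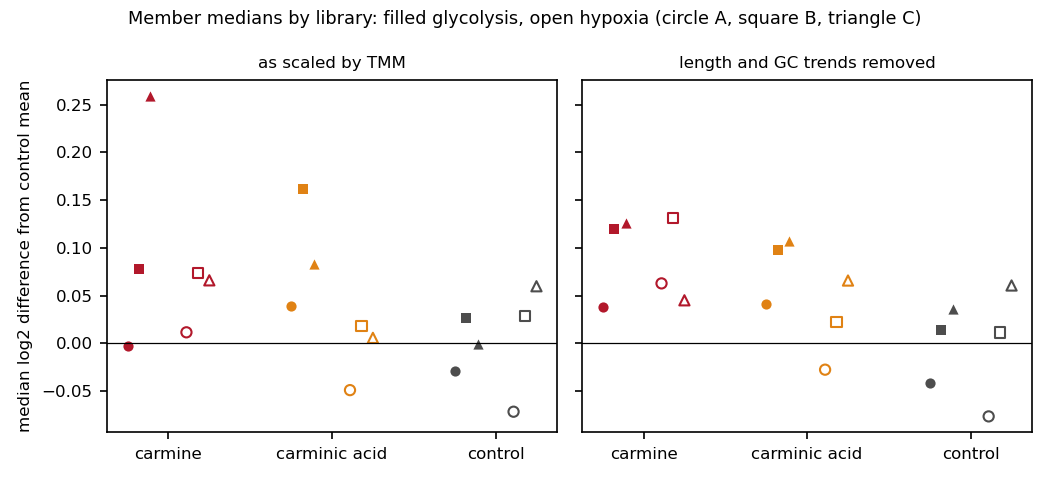
Median log2 difference from the control mean over the tested glycolysis and gluconeogenesis genes (filled) and hypoxia genes (open) in each library, scaled by TMM on the left and with length and GC trends removed on the right. Carmine library C (filled triangle) lies at 0.26 on the left and at 0.13 on the right, while the open symbols of all groups overlap in both panels.

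Other genes of the same pathways were read from a list of 70, of which 66 were tested: 36 of glucose and pyruvate metabolism and 30 of the hypoxia response. None passed the adjusted threshold in either comparison. With carmine, 21 of the 36 and 18 of the 30 were positive, with medians of 0.04 and 0.06; 6 and 4 were higher at an unadjusted p under 0.05 and 2 and 1 were lower, where 5.38% of all genes were higher and 5.61% lower at that level and 51.67% were positive. With carminic acid, 24 of 36 and 15 of 30 were positive, with medians of 0.09 and 0.0003, and 3 of each list were higher and 0 and 1 lower at that level, where the shares over all genes were 48.11% positive, 2.52% higher and 3.91% lower.

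PPFIA4, a liprin scaffold gene found in hypoxia signatures, had the smallest p of the 66 genes in both comparisons. The list was chosen with earlier results of these data known, so this rank is a description and not a test. For carmine the edgeR adjusted p of PPFIA4 was also the smallest over all 16017 tested genes. It stood at 46.3, 39.8 and 44.4 CPM with carmine, 46.8, 54.85 and 45.3 CPM with carminic acid and 70.6, 68.65 and 58.5 CPM in control. All libraries of both colorants lay below control, with log2 fold changes of -0.60 (SE 0.09799, edgeR adjusted p = 0.0536) and -0.43 (SE 0.0977, adjusted p = 0.6665). With the length and GC trends removed it passed in both, with edgeR adjusted p-values of 0.00172 and 0.00576. EGLN1, the main HIF prolyl hydroxylase, stood at 252, 241 and 234 CPM with carmine, 222, 215.5 and 230.0 CPM with carminic acid and 207, 213 and 232 CPM in control. All carmine libraries exceeded control (0.15; edgeR adjusted p = 0.445, and 0.0252 with the trends removed), opposite in sign to HIF1A, and carminic acid libraries overlapped control. HMOX1, heme oxygenase, which HIF and NRF2 both induce, stood at 69.3, 71.2 and 84.5 CPM with carmine, 70.2, 76.7 and 80.8 CPM with carminic acid and 64.2, 65.2 and 63.1 CPM in control, with 0.22 and 0.24. Libraries of both colorants lay above control. FAM162A and INSIG2, further HIF targets, had log2 fold changes of 0.19 and 0.15 for carmine, and P4HA2 and ANGPTL4 had 0.17 and 0.58 for carminic acid, the second at only 1.65 to 3.57 CPM. FAM162A and INSIG2 averaged 68.04 ± 3.40 and 57.97 ± 1.38 RPKM with carminic acid, against 63.95 ± 1.70 and 59.44 ± 3.02 in control. P4HA2 and ANGPTL4 averaged 70.01 ± 6.05 and 1.33 ± 0.480 RPKM with carmine, against 64.93 ± 0.647 and 0.958 ± 0.1055 in control (SD, n = 3 each).

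In glucose metabolism, the glucose 6-phosphate carrier SLC37A4, which works with glucose 6-phosphatase, stood at 237, 226 and 281 CPM with carmine, 219.7, 229.8 and 234 CPM with carminic acid and 206, 216 and 194 CPM in control. Its log2 fold change was 0.27 for carmine (edgeR adjusted p = 0.358; 0.01055 with the trends removed), with all carmine libraries above control. The mitochondrial pyruvate carrier subunit MPC2 had a log2 fold change of 0.21 and the glycogen enzyme PGM1 0.18 for carmine, and both passed with the trends removed (edgeR adjusted p = 0.0433 and 0.0451). The lactate transporter chaperone BSG and glycerol 3-phosphate dehydrogenase GPD1 had log2 fold changes of 0.22 and 0.25 for carmine, both highest in carmine library C, at 854 and 89.4 CPM. The lowest carmine library of BSG, at 270.6 RPKM, lay within the control range of 266.2 to 280.8 RPKM. That of GPD1, at 20.71 RPKM, was just above the highest control library at 20.42 RPKM. SLC37A4 and HMOX1 were also highest with carmine in library C. The carmine values of BSG, GPD1, SLC37A4 and HMOX1 without library C are not given, so their dependence on that library is not shown. GCKR, the glucokinase regulator at about 1 to 2 CPM, and the muscle mutase PGAM2 had log2 fold changes of -0.70 and -0.32 for carmine. With carminic acid they averaged 0.615 ± 0.136 and 5.09 ± 0.471 RPKM, against 0.819 ± 0.175 and 4.63 ± 0.229 in control (SD, n = 3 each). Pyruvate carboxylase PC and the D-lactate dehydrogenase LDHD had log2 fold changes of 0.20 and 0.28 for carminic acid. None of the genes in these sentences passed the adjusted threshold without removal of the trends.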

How the data were processed

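The deposited values are raw read counts for genes listed by NCBI Gene ID, with a file for each library. Per the submitters' processing notes, FastQC, HISAT and featureCounts were used with build hg38, with no versions stated. Annotation, strand setting and the handling of reads that map to several places were not given in the sources used here. IDs were matched to symbols in a RefSeq table (27745 of 28395). The tests used edgeR 4.0.16 under R 4.3.3: filterByExpr by group left 16017 genes, TMM scaling, 1 robust quasi-likelihood fit of all 9 libraries without covariates, and 2 two-sided contrasts, carmine and carminic acid against control, adjusted by Benjamini-Hochberg over all tested genes (threshold 0.05; intervals 95%; prior count 0.5). RPKM used the union of exons of RefSeq-matched GENCODE transcripts. The test was checked on simulated data. Alternatives used other scalings and filters, DESeq2 1.42.0, limma 3.58.1 (voom), the letter as a block, removal of length and GC trends, 6 libraries only, and leaving out each library. The members, the lists and the rule for named genes were chosen with earlier results of these data known. That rule named every member, and gave values by library for those with an unadjusted p under 0.05 and for 13 members whatever the test. Of the other pathway genes it took those with an unadjusted p under 0.05 and a mean log2 CPM not below 0. Not every gene that met this rule is reported here. The values of PFKL by library, the ENO1 share and HKDC1 were added after their values were seen. No 2 libraries of a group were copies: the chi-square per degree of freedom over shared genes was 9.51 or more.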

Additional observations from a re-analysis of the deposited data

How the results depend on the processing

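With 3 libraries per group and at least 54871018 counts in each, counting error was small for the abundant members. It was larger for members with few counts, such as ANKRD37 (202 to 274 counts per library, SE 0.1432 for carmine). The parts of counting error and of the spread between libraries were not separated. The count of genes called for carmine, 0 as reported, was 7 with RLE factors or library size alone, 19 with no filter beyond 1 count, 81 by DESeq2, 43 by limma-voom, 445 with length and GC trends removed, 843 with the replicate block as well, 12 with only the 6 libraries compared, and 1 to 36 leaving out 1 library (36 without carmine C, 11 without carmine A, 5 without control C). Members called for carmine were 1 by DESeq2 (BNIP3) and 4 with the trends removed, with or without the block (PGAM1, HIF1A, BNIP3 and BNIP3L). Other pathway genes called for carmine were 1 with RLE factors, library size alone, no filter, DESeq2 or voom, 5 with the trends removed, 8 with the block as well, and 0 to 1 leaving out 1 library. The hypoxia median for carmine was 0.0039 (without control A) to 0.0911 (without control C). For carminic acid, genes called were 2 with no filter, 6 by DESeq2, 34 by voom, 4 with the trends removed, 2 with the block as well, 49 with only 6 libraries, and 0 to 1 leaving out 1 library; other pathway genes called were 1 by voom, 1 with the trends removed with or without the block, and 1 with only 6 libraries. The hypoxia median for carminic acid was 0.0413 with the trends removed, with or without the block, and -0.067 to 0.0331 leaving out 1 library. P4HA1 for carminic acid was reversed to 0.11 with the trends removed, with or without the block. The cause of these differences was not tested. The replicate block alone called 0 genes in both comparisons; letters did not pair the libraries, since deviations of same-letter libraries correlated at -0.138 to 0.0848. Among the values of single members over the alternatives, 9 gained a call for carmine and 0 for carminic acid. The sign of the log2 fold change differed from that reported in 34 of 544 values for carmine, over 12 members, and in 21 of 544 for carminic acid, over 8 members; P4HA1 for carminic acid (0.11 with the trends removed, with and without the replicate block) was the one where either fit had an unadjusted p under 0.05.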
